A study of Homo sapiens with 6 samples.

Results

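Glycosphingolipids are sugar chains built on the lipid ceramide, and 9 genes that encode the enzymes of their first and branching steps were measured in HCT-15 cells with and without 5-aza-2'-deoxycytidine. They were chosen by role: every probe set whose RefSeq transcript belongs to UGCG, UGT8, GAL3ST1, A4GALT, B3GALNT1, GBGT1, B4GALNT1, B3GALT4 or B3GNT5 was taken. All 9 were found, among 927 named genes on the array, with 10 of its 1259 probe sets, because A4GALT had 2. HCT-15 is an established human colon cancer cell line, and the drug, an analogue of deoxycytidine, is incorporated during replication and traps the enzymes that maintain DNA methylation. Total RNA of 3 untreated and 3 treated samples of this 1 line was hybridised, and the submitters asked how glycan genes change in cells that show more of the sialyl Lewis x epitope, a selectin ligand, after the drug. No source used here gives the dose or how long cells were treated. Separate cultures are not stated for the replicates either, so the p-values reflect only the spread among these samples, and that spread may be technical.

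Glycosphingolipid synthesis starts from ceramide in either of 2 ways. Addition of glucose gives glucosylceramide, which a galactosyltransferase turns into lactosylceramide, the branch point from which the globo, ganglio and lacto series grow. Addition of galactose gives galactosylceramide, which is sulfated to sulfatide, both best known from myelin and also made in some epithelia. Each step is carried out by a Golgi or endoplasmic reticulum enzyme, and the finished chains are taken apart one sugar at a time in lysosomes. Glycosphingolipids of the lacto and neolacto series can carry Lewis antigens, as glycoproteins can.

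At the head of the pathway UGCG, which makes glucosylceramide, was 1.51-fold higher in treated cells, while UGT8, which makes galactosylceramide, was 1.41-fold lower. In the ganglio series B3GALT4, which makes GM1 from GM2, was 1.67-fold lower, the largest change among the 10 probe sets. A4GALT, which makes the globo core Gb3, was 1.22-fold higher by 1 of its 2 probe sets and not called by the other. GAL3ST1, B3GALNT1, GBGT1, B4GALNT1 and B3GNT5 were not called. The test was limma's, with p-values adjusted by Benjamini-Hochberg over all 1259 probe sets, and an adjusted p under 0.05 was called. By that rule 4 of the 10 member probe sets passed, 2 as rises and 2 as falls. Over the whole array 34.8% of probe sets passed, 18.0% as rises and 16.8% as falls. The members' share of 40.0% was thus near the background, and their median log2 change of 0.07 lay beside -0.01 over the array. The median absolute log2 change was 0.12 for the members and 0.15 for all probe sets.

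Since the drug acts on DNA methylation at CG dinucleotides, the sequence before the start of transcription is shown for UGCG, UGT8 and A4GALT, which had a called probe set, and for B3GNT5, which had none. Methylation itself was not measured. A RefSeq promoter table (GRCh38.p14) gave 14 windows for 7 of the 9 genes, all but B3GALT4 and B4GALNT1, and 250 bases before each listed start were examined. Where a gene has several starts the window farthest upstream is printed, and which start HCT-15 cells use is not known here. Sequences run 5′ to 3′ on the gene's strand, with CG in capitals:
UGCG, chr9:111896564-111896813, plus strand: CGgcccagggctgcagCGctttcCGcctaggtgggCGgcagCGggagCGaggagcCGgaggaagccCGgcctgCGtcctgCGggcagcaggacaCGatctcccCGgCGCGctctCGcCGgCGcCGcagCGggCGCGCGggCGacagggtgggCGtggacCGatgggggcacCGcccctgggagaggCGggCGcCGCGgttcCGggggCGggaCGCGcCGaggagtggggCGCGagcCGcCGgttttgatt
UGT8, chr4:114598152-114598401, plus strand: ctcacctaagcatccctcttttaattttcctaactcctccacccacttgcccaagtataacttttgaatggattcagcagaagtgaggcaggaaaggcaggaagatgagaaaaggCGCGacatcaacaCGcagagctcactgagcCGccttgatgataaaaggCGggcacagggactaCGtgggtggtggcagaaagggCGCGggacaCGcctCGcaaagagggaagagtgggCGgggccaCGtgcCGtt
A4GALT, chr22:42721302-42721551, minus strand: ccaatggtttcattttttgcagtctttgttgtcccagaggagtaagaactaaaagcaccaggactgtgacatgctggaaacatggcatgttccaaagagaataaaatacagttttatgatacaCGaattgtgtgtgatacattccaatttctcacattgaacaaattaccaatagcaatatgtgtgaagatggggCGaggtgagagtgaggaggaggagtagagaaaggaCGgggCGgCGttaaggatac
B3GNT5, chr3:183253003-183253252, plus strand: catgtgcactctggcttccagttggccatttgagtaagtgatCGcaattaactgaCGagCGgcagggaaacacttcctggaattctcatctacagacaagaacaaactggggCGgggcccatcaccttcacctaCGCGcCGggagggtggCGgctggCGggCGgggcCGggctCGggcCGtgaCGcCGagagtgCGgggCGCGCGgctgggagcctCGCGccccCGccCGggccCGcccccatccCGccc

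The UGCG window held 39 CG dinucleotides, and only 2.65% of the 35116 windows in the table held as many or more. For B3GNT5 the number was 25 (21.6% of windows held as many or more), for the printed UGT8 window 13 (46.6%) and for the printed A4GALT window 5 (65.7%). The other UGT8 windows held 30 and 12, and the other A4GALT window held 33. Over all windows the median was 11, and over the 1027 windows of genes on the array it was 16. Among the windows that were not printed, B3GALNT1 held 20, 26 and 28, GBGT1 held 17, and GAL3ST1 ranged from 31 at its first listed start to 3 and 0 at the others.

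In all, 3 short motifs were searched on both strands of the same windows. GGGCGG, the GC box, which always holds a CG, was present 3 times before UGCG, 5 times before B3GNT5 and 1 time each in the printed UGT8 and A4GALT windows, against 42.6% of all windows with at least 1. CCAAT was present 3 times in the printed A4GALT window and in none of the other 3 printed, against 32.0% of all windows. CACGTG, the E-box, which also holds a CG, was present 1 time in the printed UGT8 window, against 6.34% of all windows. The counts depend on the start chosen. The other A4GALT window held GGGCGG 7 times and CCAAT 0 times. The other UGT8 windows held GGGCGG 3 times and 1 time, and CACGTG 0 times. Among windows of genes on the array, 54.2% held GGGCGG, 29.1% CCAAT and 6.72% CACGTG. These are matches of letters only.

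As for the arrays as a whole, medians lay between 5.81 and 5.92 and pairs of arrays correlated at 0.9974 to 0.9987 within a group and at 0.9817 to 0.9844 across groups. For untreated replicate 3 the title names treatment while the source name and treatment entry do not, and it was grouped by the latter; UGCG, UGT8, B3GALT4 and the second A4GALT probe set kept their calls without it. Over the array 227 probe sets rose and 211 fell, a split that became 197 rises and 311 falls once each array was centred on its median. Of 12 markers of colon epithelium fixed for the comparison, 3 had a probe set: MUC13 rose (7.97 to 8.93), LGALS4 fell (9.54 to 9.03) and MUC2 stayed uncalled (5.57 to 5.67). The remaining 9, EPCAM and CDH1 among them, were not measured. Of 10 leukocyte markers 3 were measured, with 1 rise (CD33) and 1 fall (CD22), and their summed unlogged level was 112 to 114 in untreated and 125 to 137 in treated arrays. Of 12 stromal and endothelial markers 8 were measured, with 2 rises (BGN and PECAM1) and 1 fall (PDGFRB), and a summed level of 233 to 278 against 279 to 303. Group means of BGN (7.12 untreated, 7.45 treated), PDGFRB (5.22, 4.74) and PECAM1 (4.98, 5.27) were the highest of these 8, PDGFRA (3.55, 3.72) and SELP (3.82, 3.78) came next, and SELE (2.97, 2.87), DCN (2.76, 2.75) and LUM (2.43, 2.58) were the lowest. The part of these markers in the results below was not tested. In a bulk sample, fewer cells with a transcript and less of it per cell cannot be told apart.

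UGCG, ceramide glucosyltransferase, commits ceramide to all glucose-based glycosphingolipids. Its log2 value was 6.82, 7.12 and 6.99 on untreated arrays 1 to 3 and 7.73, 7.47 and 7.52 on treated arrays 1 to 3. All 3 treated values lay above all 3 untreated ones, with a gap of 0.35 between the groups. The log2 change was 0.59 ± 0.10 SE (95% interval 0.38 to 0.81, adjusted p = 0.000672 in limma). Untreated replicate 1 was the lowest and treated replicate 1 the highest, and leaving out any single array gave changes between 0.51 and 0.67, each called. UGCG had the largest residual SD of the 10 probe sets (0.14), and only 20.6% of all probe sets had a larger one. Even so, only 13.3% of probe sets changed by as much or more.

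UGT8, ceramide galactosyltransferase, uses the same ceramide to make galactosylceramide. Its values were 7.31, 7.41 and 7.17 without and 6.85, 6.66 and 6.88 with the drug. The groups did not overlap, and treated cells were lower. The fall was 0.50 on the log2 scale (-0.50 ± 0.09 SE, interval -0.70 to -0.30, adjusted p = 0.00118 in limma), and with any array left out the change lay between -0.56 and -0.43, each called. GAL3ST1, which adds sulfate to galactosylceramide to give sulfatide, was not called. Its values of 6.55, 6.41 and 6.38 in untreated and 6.44, 6.66 and 6.48 in treated cells overlapped (0.08 ± 0.08 SE, adjusted p = 0.526), and the interval of its change ran from 0.93-fold to 1.2-fold. UGCG and UGT8 share their substrate, and the difference between their log2 values on the same array rose by 1.09, or 2.13-fold. Relative to the untreated mean this difference was -0.17, 0.03 and 0.14 on the untreated arrays and 1.20, 1.13 and 0.95 on the treated ones. It is not moved by any shift common to an array, and it is given here as a description with no test.

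**Figure D1:**
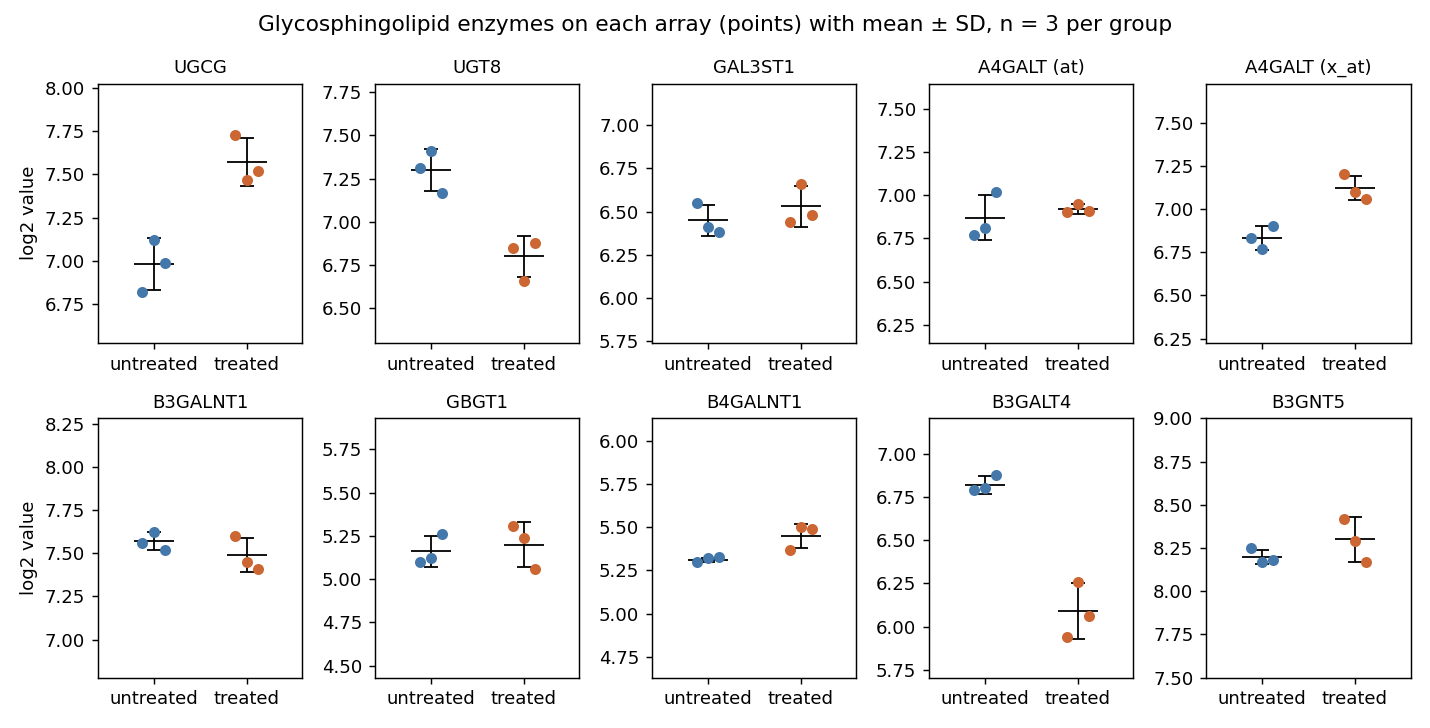
Log2 value of each probe set on each of the 6 arrays (points; blue untreated, orange treated, replicates 1 to 3 from left to right) with the group mean ± SD (n = 3); each panel spans 1.5 log2 units but starts at its own level. UGCG and the second A4GALT probe set lie higher and UGT8 and B3GALT4 lower in treated cells with no overlap, and B4GALNT1 also does not overlap although its change is small.

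In the globo series A4GALT adds galactose to lactosylceramide and forms globotriaosylceramide (Gb3), known as the Pk blood group antigen and as the receptor of Shiga toxin. Its probe sets, which carry the same transcript identifier, gave different answers. The set whose name ends in at, which by Affymetrix convention matches 1 gene, read 6.77, 6.81 and 7.02 in untreated and 6.90, 6.95 and 6.91 in treated cells. Those groups overlapped because untreated replicate 3 was the highest of the 6 (0.05 ± 0.08 SE, adjusted p = 0.697). The set ending in x_at, a mark for probes that may also bind other transcripts, read 6.83, 6.77 and 6.90 against 7.20, 7.10 and 7.06, with no overlap. Its change was 0.28 ± 0.07 SE (interval 0.12 to 0.45, adjusted p = 0.0108 in limma). The call was lost without treated replicate 1 (0.25, adjusted p = 0.0563) and when both sets were averaged (0.17, adjusted p = 0.103). By the same convention s_at marks probes shared by several transcripts. Only such sets read UGT8, B3GALNT1, GBGT1 and B4GALNT1. Among called genes of the lists below, this holds for ST3GAL1, ST3GAL6, FUT2 and GCNT2, and the sets of NEU1 end in s_at and x_at. Which transcripts these sets bind was not checked.

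The disagreement can also be read on each array. The x_at value minus the at value, relative to its untreated mean, was 0.09, -0.01 and -0.08 on untreated and 0.33, 0.18 and 0.18 on treated arrays. The difference rose by 0.23 (exact permutation test, p = 0.1, the lowest value that 3 against 3 arrays allow). It was chosen after the values were seen, so no conclusion is drawn from that test. The A4GALT set that was called is the one whose ending marks probes that may bind other transcripts. Whether its probes do so was not tested.

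The later globo steps showed no call. B3GALNT1, which adds N-acetylgalactosamine to Gb3 and forms globoside, read 7.56, 7.62 and 7.52 without and 7.60, 7.45 and 7.41 with the drug. Its groups overlapped (-0.08 ± 0.08 SE, adjusted p = 0.501), with an interval of 0.844-fold to 1.07-fold. GBGT1, the gene of the Forssman synthase, whose usual human form has little activity, read 5.10, 5.12 and 5.26 against 5.31, 5.24 and 5.06. These also overlapped (0.04 ± 0.08 SE, adjusted p = 0.767), treated replicate 3 being the lowest of all 6. GBGT1 was the dimmest of the members, with 38.3% of probe sets at or below its mean, and still above 4.9, the floor of the alternative that drops the dimmest probe sets.

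The ganglio series held the clearest fall. B3GALT4 adds galactose to GM2, GD2 and their asialo form and so forms GM1 and its relatives. It read 6.79, 6.80 and 6.88 in untreated and 5.94, 6.26 and 6.06 in treated cells. The highest treated value lay 0.53 below the lowest untreated one, and untreated values were close together (SD 0.05) while treated ones spread more (SD 0.16). The change was -0.74 ± 0.09 SE (interval -0.93 to -0.54, adjusted p = 8.05e-05 in limma), and 9.29% of probe sets changed by as much or more. With any array left out it lay between -0.82 and -0.66, each called.

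B4GALNT1 acts just before B3GALT4 and forms GM2 and GD2 from GM3 and GD3. Its values were 5.30, 5.32 and 5.33 in untreated and 5.37, 5.50 and 5.49 in treated cells. All treated values were higher, so the groups did not overlap, yet the change of 0.14 ± 0.07 SE was not called (interval -0.02 to 0.29, adjusted p = 0.165). Lack of overlap is common on this array: it held for 5 of the 10 member probe sets, 3 with treated cells higher and 2 lower, and for 46.1% of all probe sets, 22.7% higher and 23.4% lower. The within-array difference between B4GALNT1 and B3GALT4 rose by 0.87 on the log2 scale, to 0.94, 0.74 and 0.94 on the treated arrays relative to the untreated mean, with untreated arrays at 0.02, 0.03 and -0.04.

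B3GNT5 starts the lacto and neolacto series by adding N-acetylglucosamine to lactosylceramide, so it opens the lipid route to Lewis antigens. Its values were 8.25, 8.17 and 8.18 in untreated and 8.42, 8.29 and 8.17 in treated cells. The groups overlapped, treated replicate 3 lying level with the lowest untreated array (0.10 ± 0.08 SE, adjusted p = 0.421). Its interval ran from 0.944-fold to 1.21-fold, so a rise of the size seen for UGCG lies outside it.

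**Figure D2:**
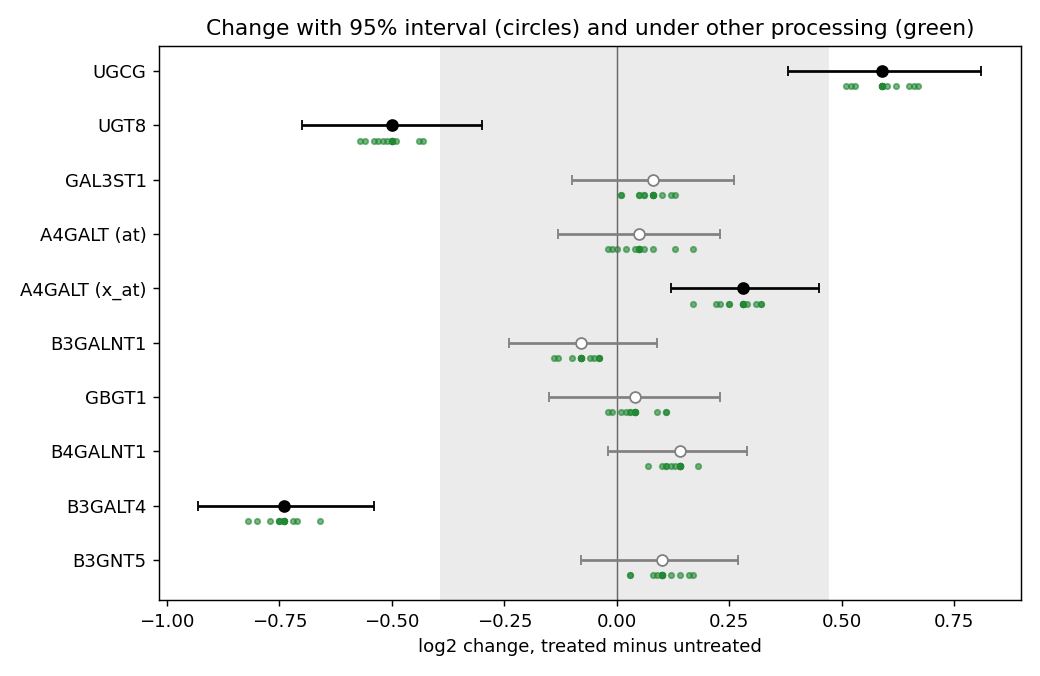
Log2 change, treated minus untreated, of the 10 probe sets with its 95% interval (circles; filled black where adjusted p was under 0.05), the change under 15 other processing settings (green points beneath) and the range from the 10th to the 90th percentile of all 1259 probe sets (grey band, -0.39 to 0.47). UGCG, UGT8 and B3GALT4 lie outside the band, and no green point of these or of the second A4GALT set crosses 0.

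The enzymes between and after these steps were read from lists of the wider pathway. Lactosylceramide synthases, which link UGCG to every branch, were not called: B4GALT5 had a log2 change of -0.01 ± 0.08 SE (adjusted p = 0.931) and B4GALT6 of 0.05 ± 0.08 SE (adjusted p = 0.697). In the list of 10 sialyltransferase genes that act on glycolipids, 4 of 11 probe sets rose and 0 fell. The median log2 change was 0.04. At an unadjusted p under 0.05 in limma 0 were lower, and an ordinary linear model gave 0 falls at an adjusted p under 0.05. The 36.4% called is near the 34.8% of the whole array, but all were rises, beside 18.0% rises and 16.8% falls over the array. ST6GALNAC5, which makes the α-series ganglioside GD1α, read 2.87, 2.89 and 2.82 in untreated and 3.97, 4.10 and 3.50 in treated cells (log2 change 1.00 ± 0.13 SE, adjusted p = 0.000145). It started near the floor of the array, whose lowest value is 2.13, and was not shown to be above background there, and treated replicate 3 was clearly below the other treated arrays. ST8SIA1, the GD3 synthase, went from 3.42 to 3.75 (adjusted p = 0.0105) and ST3GAL6 from 2.73 to 3.17 (adjusted p = 0.0025), both low levels with the same limit. ST3GAL1, which also acts on O-glycans, was 1.25-fold higher (adjusted p = 0.0108). ST3GAL5, which makes GM3 and so feeds the ganglio series, went from 6.73 to 6.98 and just missed the threshold (0.25 ± 0.09 SE, adjusted p = 0.0518). With the dimmest probe sets left out only ST3GAL1 was still called, since the other 3 lie below that level. After quantile normalization or median centring 1 fall was called in this list, and the ordinary linear model left 2 rises.

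Among 14 genes that extend or cap lacto and neolacto chains, 3 of 15 probe sets rose and 5 fell, with a median log2 change of -0.14. That is 53.3% called, beside 34.8% over the array (18.0% rises and 16.8% falls). B3GNT2, a polylactosamine synthase, had 6.92, 7.08 and 6.98 in untreated and 7.99, 7.97 and 7.72 in treated cells, 1.87-fold higher (adjusted p = 1.96e-05). B4GALT1 (1.29-fold, adjusted p = 0.0128) and the branching enzyme GCNT2 (1.19-fold, adjusted p = 0.0332) also rose. FUT2, which adds the fucose of the H antigen, had 8.25, 8.29 and 7.92 against 7.20, 7.20 and 7.33, 1.88-fold lower (adjusted p = 4.69e-05). Both FUT3 sets, which may share signal with the close paralogs FUT5 and FUT6, fell by 0.51 and 0.56 on the log2 scale. FUT1 (-0.36, adjusted p = 0.0404) and B4GALT2 (-0.32, adjusted p = 0.00976) fell too, the latter not after quantile normalization (-0.24, adjusted p = 0.0648) or in an ordinary linear model (adjusted p = 0.0518). The FUT1 call was lost without untreated replicate 1 (adjusted p = 0.129), untreated replicate 2 (0.108), treated replicate 1 (0.11) or treated replicate 2 (0.149). The GCNT2 call was lost without untreated replicate 1 (0.073), untreated replicate 2 (0.108) or treated replicate 3 (0.0918), and that of B4GALT1 without untreated replicate 2 (0.0536), which left 1 rise in the list. In this list 8 falls were called after median centring, 1 rise after quantile normalization, and 1 rise and 2 falls in an ordinary linear model.

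On the breakdown side 12 of 15 listed genes had 14 probe sets, of which 3 rose and 0 fell in limma's test (1 lower at an unadjusted p under 0.05, and 0 falls in an ordinary linear model), with a median log2 change of -0.04. That is 21.4% called, beside 34.8% over the array, where 18.0% rose. GLA, the lysosomal α-galactosidase that removes the galactose A4GALT adds, read 9.33, 9.49 and 9.42 against 9.97, 9.85 and 9.88, 1.4-fold higher (adjusted p = 0.000391). Both probe sets of NEU1, a lysosomal sialidase, rose, one 2.08-fold (adjusted p = 1.23e-06) and the other 1.96-fold (adjusted p = 2.19e-06). Without untreated replicate 1, or without treated replicate 1, the list had 1 fall, and after quantile normalization or median centring it had 3.

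For 6 glycolipids the enzyme that makes the lipid was set beside one that degrades it. For galactosylceramide UGT8 fell, and GALC, which degrades it, changed by -0.26 ± 0.10 SE and was not called (adjusted p = 0.0602). For Gb3 the degrading enzyme GLA rose and A4GALT rose by 1 of 2 sets. For GM1 B3GALT4 fell, whereas the β-galactosidase GLB1 was not called (-0.15 ± 0.07 SE, adjusted p = 0.12). Neither side was called for sulfatide (GAL3ST1, ARSA), GM3 (ST3GAL5, NEU3) or GM2 (B4GALNT1, HEXA).

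**Figure D3:**
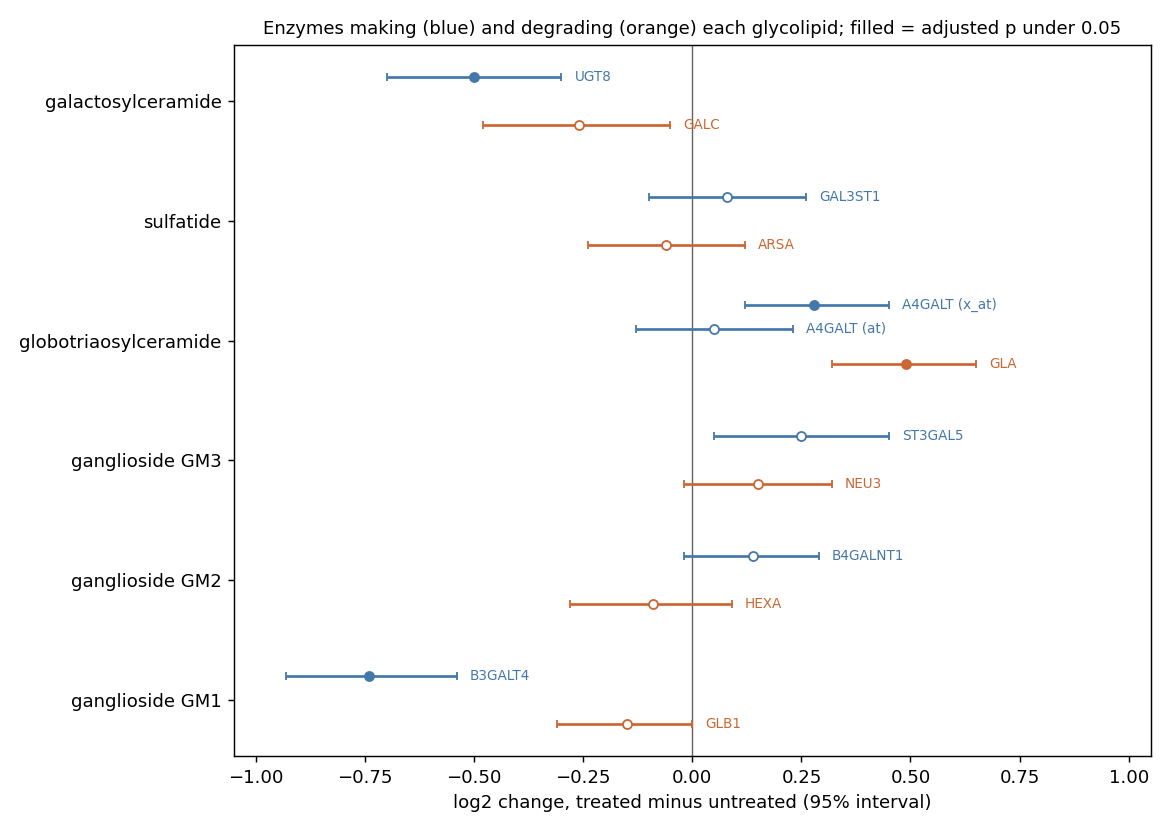
Log2 change, treated minus untreated, with its 95% interval for the enzymes that make (blue) and degrade (orange) each of 6 glycolipids, 1 point for each probe set, filled where adjusted p was under 0.05. Called were UGT8 (-0.50) and B3GALT4 (-0.74) to the left, and GLA (0.49) and the x_at set of A4GALT (0.28) to the right.

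Sugar donors and their carriers into the Golgi made up the last list, with 2 rises and 5 falls among 15 probe sets of 12 genes and a median log2 change of 0.02. That is 46.7% called, beside 34.8% over the array (18.0% rises and 16.8% falls). GALT (1.62-fold lower, adjusted p = 2.69e-05) and GALK1 (1.35-fold lower, adjusted p = 0.00826), enzymes of galactose use, fell with CMAS, which activates sialic acid (1.57-fold lower, adjusted p = 0.000264). The carriers of the sulfate donor PAPS, SLC35B2 (1.4-fold lower, adjusted p = 0.00104) and SLC35B3 (1.3-fold lower, adjusted p = 0.0117), were lower as well. UAP1, which makes UDP-N-acetylglucosamine, was 1.38-fold higher (adjusted p = 0.000782). UGP2, which supplies the UDP-glucose that UGCG uses, was not called (adjusted p = 0.427). Of 4 probe sets of the UDP-galactose carrier SLC35A2, 1 rose (0.30, adjusted p = 0.013) and 3 were not called. That call was lost without untreated replicate 1 (0.0571) or untreated replicate 2 (0.0558), either of which left 1 rise in the list, and the SLC35B3 call was lost without untreated replicate 2 (0.0568) and after quantile normalization (0.0542). The ordinary linear model left 1 rise and 3 falls. Of 16 genes of ceramide and sphingomyelin supply only SMPD1 had a probe set, which was not called (0.06 ± 0.09 SE, adjusted p = 0.694), so the supply of ceramide to UGCG and UGT8 was not analysed here.

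**Figure D4:**
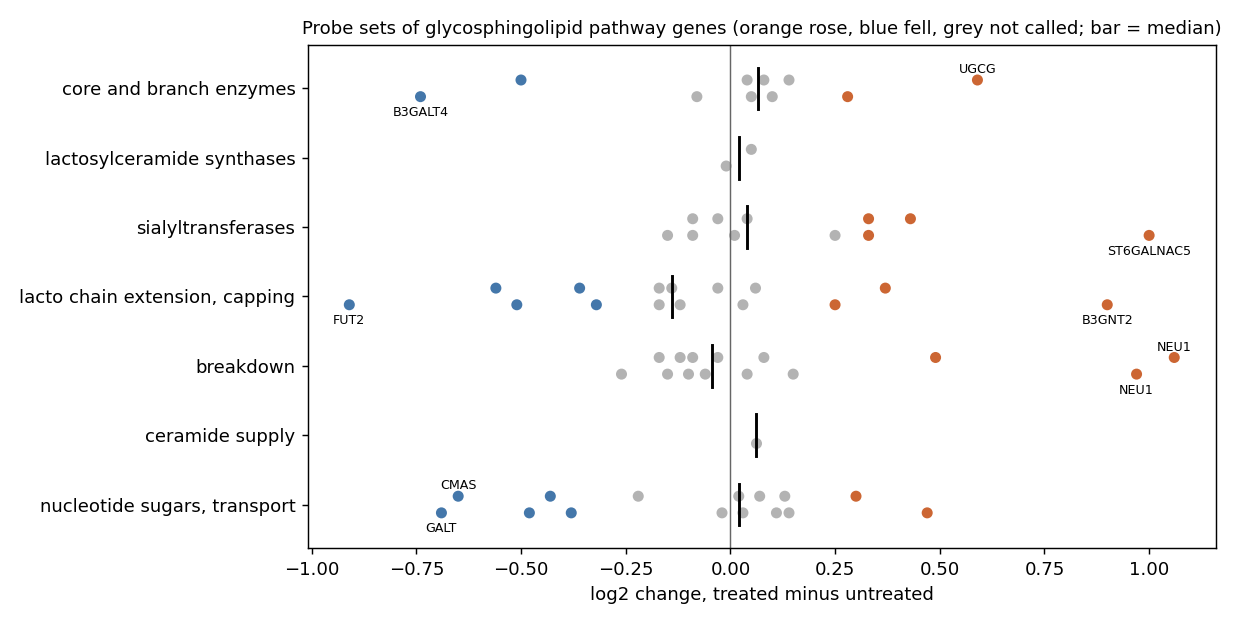
Log2 change of each probe set (points; orange rose, blue fell, grey not called at an adjusted p of 0.05) in the 9 core and branch enzymes (top row) and 6 lists of the wider pathway, with the median of each row as a black bar. Called changes run both ways in the rows of core enzymes, chain extension and sugar supply, and row medians lie between -0.14 and 0.07.

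Genes outside the 9 members with values most like those of UGCG and B3GALT4 were found by the root mean square difference over the 6 arrays, after the untreated mean of each gene was subtracted, among 1033 other named probe sets. For UGCG they were GALNT7, which acts on mucin-type O-glycans (0.0834 log2 units), SMC3, a cohesin subunit (0.0859), and the chaperone gene HSP90AA1 (0.0875). For B3GALT4 they were GALT (0.0878), the growth factor gene PDGFC (0.0902) and MPI, mannose phosphate isomerase (0.11). With 3 arrays in each group this likeness is mostly the size of the change: GALNT7, SMC3 and HSP90AA1 rose by 0.59, 0.58 and 0.56, and GALT, PDGFC and MPI fell by 0.69, 0.74 and 0.76.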

How the data were processed

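RNA was labelled with biotin by an Affymetrix protocol, per the labels. A single table of log2 values was deposited, made by the authors with RMA (background correction, normalization between arrays and summary over probes) per the submitters' processing notes. The log2 scale was inferred from the values, which run from 2.13 to 13.67 with like medians. No source used here names the version or settings of RMA, the platform or a genome build. Quantile steps would reduce a change shared by most genes, and dim probe sets are compressed. Columns of values left unused numbered 0, and at most 5 values were identical between any pair of arrays.

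Transcript identifiers in probe set names, without versions, were matched to RefSeq genes (GRCh38.p14, for names only): 1043 probe sets got 1 symbol (927 genes), and 216 stayed unnamed but were tested. In R 4.3.3, limma 3.58.1 (lmFit, eBayes defaults, two-sided, no filter) was fitted to all 6 arrays, with Benjamini-Hochberg adjustment over 1259 probe sets. Errors are standard errors of that fit, and 95% intervals are not adjusted for the number of tests. Steps were tested on simulated data. The number of arrays limits the precision.

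A few listed genes are not reported here and are left out of the list counts. Members and lists were chosen with earlier results of these data known, and the pairing of making with degrading enzymes, the within-array differences and the choice of printed windows were made after the values were seen. Named were all members, all called genes of 6 pathway lists as reported and the 3 genes most like UGCG and B3GALT4; others named were not called, or were chosen after their values were seen. Alternatives (17) were 2 scalings, a filter on the dimmest probe sets (839 stayed), 2 other variance priors, array weights, the replicate block, each array left out, an ordinary linear model, thresholds of 0.01 and 0.1, and 1 mean value for each gene.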

Additional observations from a re-analysis of the deposited data

How the results depend on the processing

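Of the 10 member log2 changes, 9 kept their call, or lack of it, in all 17 alternatives; those of UGCG (0.51 to 0.67), UGT8 (-0.57 to -0.43) and B3GALT4 (-0.82 to -0.66) also kept their direction. The exception was the x_at probe set of A4GALT, not called when the probe sets of a gene were averaged (0.17, adjusted p = 0.103), without treated replicate 1 (0.25, adjusted p = 0.0563) or at a threshold of 0.01 (0.28, adjusted p = 0.0108), so that 1 member rose in place of 2 in each. With an array left out, its change ran from 0.25 to 0.32 and the count of member rises from 1 to 2, while falls stayed at 2. The other A4GALT set and GBGT1, neither called, reached -0.02 at their lowest. Counts over the array stayed within 1.5 times, at 168 to 254 rises and 153 to 311 falls. Median centring moved the median of all changes from -0.01 to -0.08. Deviations of same-numbered arrays correlated at -0.274, 0.037 and -0.111, so no pairing by number was seen. Deviations from a mean of 3 arrays constrain one another, so this check cannot settle whether the arrays were paired. Each array correlated best with an array of another number: untreated 1 with treated 3 (0.422), 2 with 1 (0.413) and 3 with 2 (0.225). That matching was not used in the replicate block. With the replicate block 209 probe sets rose and 185 fell, with 2 rises and 2 falls among the members; of the called pathway genes named, FUT1 lost its call (-0.36, adjusted p = 0.106); alternatives were not read for the marker genes. Detection calls were not used here, so levels of dim sets such as ST6GALNAC5 cannot be set against background.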
